A study of Mus musculus with 4 samples.

Results

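Connexins are the subunits of gap junctions, and 6 of their genes were followed here in the surface layers of the fetal mouse liver: Gja1, Gja4, Gja5, Gjb1, Gjb2 and Gjc1. All probe sets whose single annotated gene symbol was 1 of these names were taken, which gave 13 probe sets of the 45037 on the array that are not controls. Of the 13, 9 were tested, for 4 of the 6 genes, among 22800 probe sets and 11656 named genes tested in all. The 6 genes were selected on signal differences between genotypes on these same arrays, which were known when the set was put together. Their differences between genotypes are therefore given as a description, and the limma values stand beside them only to show where they lie in a fit of all probe sets.

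The 4 samples were mesothelial and submesothelial cells dissected from the liver surface of C57BL/6 mice on day 17.5 of embryonic development. The 2 control samples came from p57+/+ (wild-type) embryos and the 2 others from p57-/- embryos, labelled Kip2 -/-, which lack the cyclin-dependent kinase inhibitor encoded by Cdkn1c. The titles place 1 sample of each genotype in experiment 1 and 1 in experiment 2, and these numbers served as replicate numbers. Whether a sample was 1 embryo, a pool or a litter is not given in the labels, so the spread between samples may be partly technical. The loss of p57 is not described as limited to any cell type, and the dissected layers are a mixture. In such bulk samples, fewer cells of a type and less RNA per cell cannot be told apart.

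Connexin proteins assemble into channels that dock across the gap between neighbouring cells and let ions and small metabolites pass. The protein of Gja1 is the most widely expressed connexin of the body and is prominent in the heart, in fibroblasts and in other mesenchymal cells. Gjb1 and Gjb2 encode the connexins of hepatocytes, Gja4 and Gja5 those of arterial endothelium, and Gjc1 a connexin of smooth muscle and the early heart tube. In the liver, gap junctions carry calcium and second messenger signals between hepatocytes.

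Each array gave a MAS5 signal on an arbitrary linear scale and a call of Present, Marginal or Absent for every probe set. Present calls had a detection p of at most 0.0483 and Absent calls of at least 0.0652. Between 48.4% and 50.01% of the probe sets were Present on an array, and the lowest Present signal was 12.4 to 15.4. Cdkn1c gave 10255 and 9866 in the wild type and was Absent in p57-/- at 7.79 and 7.28, matching the labels. Testing was limited to probe sets Present on at least 2 of the 4 arrays. A log2 change is p57-/- minus p57+/+, with its SE from limma. In limma 1 of the 22800 probe sets passed an adjusted p of 0.05 (0.00439%), that of Cdkn1c, and 0 of the 9 connexin probe sets did.

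Gja1 was the only tested connexin whose signals separated the genotypes. Of its 6 probe sets 5 were tested, and 4 of these were higher in p57-/- in both experiments, with log2 changes from 0.43 to 0.84. On the deposited scaling no other tested connexin probe set lay in 1 direction in both experiments, but after quantile normalization or centring of array medians Gjc1 1449094_at was lower in both, its experiment 1 value moving from 0.0074 to -0.034 and -0.020. Over all probe sets tested, 27.9% were higher in p57-/- in both experiments and 26.8% were lower in both. The 4 Gja1 probe sets read transcripts of 1 gene on the same 4 arrays, so they are repeated readings of the same RNA and not replicates of the genotype.

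The probe set of highest mean signal for Gja1, 1437992_x_at, gave 1985 and 1845 in the p57+/+ samples against 2914 and 2287 in the p57-/- samples. Both p57-/- arrays lay above both p57+/+ arrays, and the p57-/- array of experiment 1 stood highest. The means were 1915 ± 98.9 and 2601 ± 443 (SD, n = 2), a log2 change of 0.43 (SE 0.15, limma adjusted p = 0.578). The p57-/- signal was 1.47-fold that of p57+/+ in experiment 1 and 1.24-fold in experiment 2.

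Probe set 1438945_x_at showed the largest Gja1 difference. It gave 922 and 705 in the p57+/+ samples against 1599 and 1309 in the p57-/- samples, with no overlap between the genotypes. The log2 change was 0.84 (SE 0.18, limma adjusted p = 0.519), 1.73-fold in experiment 1 and 1.86-fold in experiment 2. This probe set passed the threshold in limma with the experiment number as a block (adjusted p = 0.0496), as did 0.132% of all probe sets tested. It also passed when p57-/- replicate 2 was left out, with a log2 change of 0.99 (limma adjusted p = 0.0440), in a fit that called 221 probe sets in all. Without p57-/- replicate 1 the change was 0.70, and without p57+/+ replicate 2 it was 0.65, neither past the threshold.

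Probe set 1415800_at gave 1189 and 957 in the p57+/+ samples against 1553 and 1369 in the p57-/- samples, a log2 change of 0.45 (SE 0.16). Probe set 1438650_x_at gave 604 and 623 in the p57+/+ samples against 916 and 753 in the p57-/- samples, a log2 change of 0.44 (SE 0.17). Both pairs of p57-/- arrays again lay above both p57+/+ arrays. Over all probe sets tested, 19.8% had both p57-/- signals above both p57+/+ signals, and 22.5% did among the 10633 whose geometric mean signal reached 500. Another 18.8% had both below, so non-overlapping genotypes were common on these arrays.

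The other Gja1 probe sets were dim. Probe set 1438973_x_at gave 157 (Absent) and 196 in the p57+/+ samples against 151 and 201 in the p57-/- samples, a log2 change of -0.01 (SE 0.27). Its values ordered by experiment and not by genotype, with both arrays of experiment 2 above both of experiment 1. Probe set 1415801_at was Absent on all 4 arrays, at 10.2 and 30.0 in the p57+/+ samples against 55.5 and 45.7 in the p57-/- samples, and was not tested. The probe sets of Gja1 therefore did not all show the same difference, and 4 of the 6 carry the suffix _x_at, which marks probes that may also match other transcripts. Whether they did here was not tested.

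**Figure D1:**
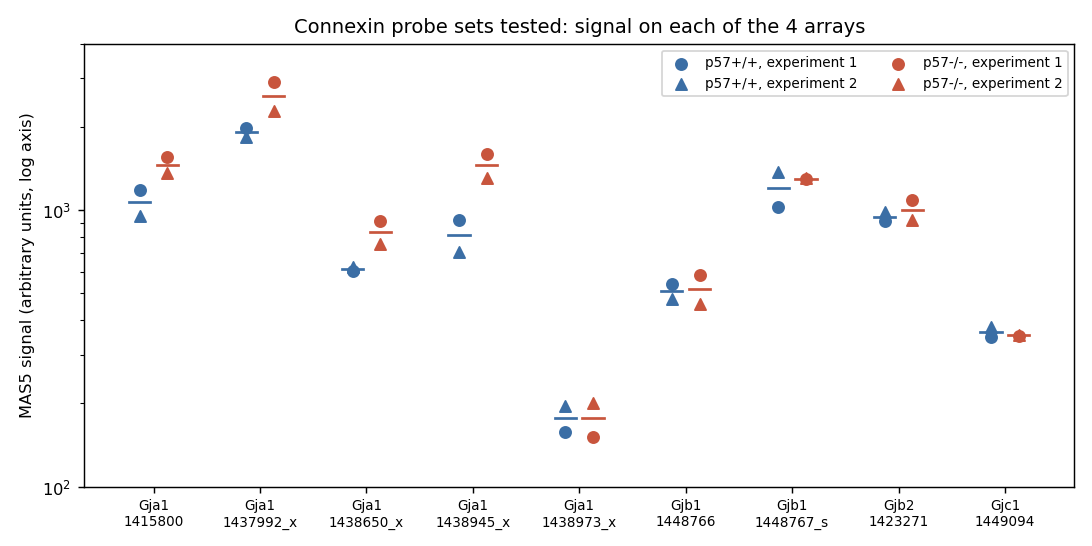
MAS5 signal on a log axis for the 9 connexin probe sets tested, with p57+/+ in blue and p57-/- in red, circles for experiment 1, triangles for experiment 2 and short bars for the mean of each genotype (n = 2). In 4 of the 5 Gja1 probe sets both p57-/- points lie above both p57+/+ points, while the points of 1438973_x_at, Gjb1, Gjb2 and Gjc1 overlap.

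The sequence before the annotated start of Gja1 is printed because Gja1 was the only tested member whose genotypes separated, and that of Gjb2 because it is a detected member whose genotypes overlapped and for which the table holds 1 start. The 250 bases before each start are from RefSeq (GRCm38.p6), chr10:56377050-56377299 on the plus strand for Gja1 and chr14:57104703-57104952 on the minus strand for Gjb2, each 5′ to 3′ along its gene. Capitals mark the motifs found.
Gja1: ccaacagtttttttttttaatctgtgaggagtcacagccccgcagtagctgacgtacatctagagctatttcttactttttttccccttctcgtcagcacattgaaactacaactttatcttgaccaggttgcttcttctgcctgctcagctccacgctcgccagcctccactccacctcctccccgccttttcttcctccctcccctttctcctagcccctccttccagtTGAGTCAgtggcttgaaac
Gjb2: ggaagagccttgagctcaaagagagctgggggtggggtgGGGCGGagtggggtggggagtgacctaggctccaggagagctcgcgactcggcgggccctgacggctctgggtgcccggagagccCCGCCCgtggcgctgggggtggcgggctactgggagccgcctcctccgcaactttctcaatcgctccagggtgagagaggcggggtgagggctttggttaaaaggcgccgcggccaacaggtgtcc
Searched on both strands were the AP-1 site TGANTCA (N any base), the GC box GGGCGG, the TATA box TATAAA and CCAAT. AP-1 is the dimeric FOS and JUN factor. Gja1 held 1 AP-1 match, TGAGTCA, 19 to 13 bases before the start, and none of the other motifs. An AP-1 match was present in 6.75% of 32851 windows of the same length. Gjb2 held 2 GC boxes, a motif present in 32.7% of those windows. TATA box and CCAAT matches were present in 12.4% and 33.8%. In all, 5 of the 6 genes had 8 such windows, and the AP-1 letters were found only in that of Gja1. The 4 Gjb1 windows held 3 GC boxes, 1 TATA box and 2 CCAAT matches between them, and Gja4 and Gja5 held 1 GC box each. A match describes letters in a window and is not evidence that a factor binds there.

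Gjb1 and Gjb2, the hepatocyte connexins, were detected on all 4 arrays with overlapping genotypes. Gjb1 probe set 1448767_s_at gave 1025 and 1379 in the p57+/+ samples against 1296 and 1311 in the p57-/- samples, so the p57-/- arrays lay between the p57+/+ arrays. Its log2 change was 0.13 (SE 0.17, limma adjusted p = 0.875). Probe set 1448766_at gave 539 and 479 against 582 and 458, a log2 change of 0.02 (SE 0.19). The difference between the p57+/+ arrays went opposite ways with the 2 Gjb1 probe sets.

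Gjb1 is on the X chromosome, and the p57+/+ samples differed in sex. The X inactivation transcript Xist (1436936_s_at) gave 12199 in p57+/+ replicate 1 and 86.7 in replicate 2, and the Y-linked gene Eif2s3y (1417210_at) gave 2.56 (Absent) and 1734. Each p57-/- sample held both, with Xist at 7889 and 6412 and Eif2s3y at 966 and 904. Neither p57+/+ sample showed such a mixture, so the sex make-up of the samples differed between the genotypes. The labels do not say how it arose. These sex-linked genes were named after their values were seen, and their part in the connexin values was not tested.

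Gjb2 gave 913 and 987 in the p57+/+ samples against 1089 and 920 in the p57-/- samples. The means were 950 ± 52.3 and 1004 ± 119 (SD, n = 2), a log2 change of 0.08 (SE 0.16, limma adjusted p = 0.924). For Gjb1 and Gjb2 alike, p57-/- was the higher in experiment 1 and the lower in experiment 2, with log2 differences of 0.34 and -0.07 for 1448767_s_at, 0.11 and -0.07 for 1448766_at and 0.25 and -0.10 for Gjb2. Over all probe sets tested, 45.3% had opposite directions in the 2 experiments. The hepatocyte markers, of which 9 of the 10 on the array were tested, had a median log2 change of 0.22 in experiment 1 and -0.18 in experiment 2. The summed signal of all 10 was 379602 and 468481 in the p57+/+ samples against 442106 and 420046 in the p57-/- samples. It was thus also higher in p57-/- in experiment 1 and lower in experiment 2. This order was not particular to hepatocyte markers. The medians were 0.53 and -0.15 for endothelial, 0.19 and -0.32 for smooth muscle and pericyte, and 0.30 and -0.06 for bile duct markers. Other lists kept 1 direction, such as the mesenchymal one at 0.42 and 0.086 and the erythroid one at -0.76 and -0.26. The part of hepatocyte content in the Gjb1 and Gjb2 values was not tested.

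**Figure D2:**
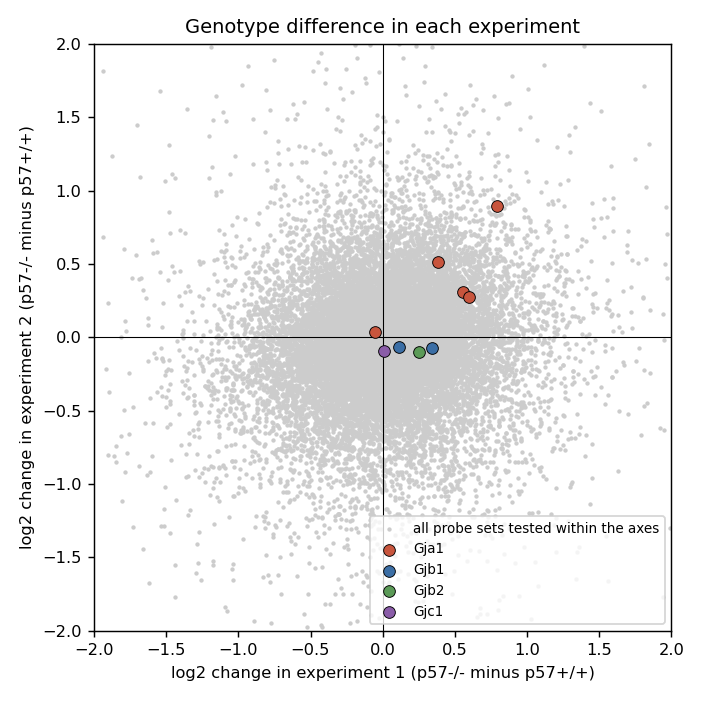
Log2 change (p57-/- minus p57+/+) in experiment 1 on the horizontal axis and in experiment 2 on the vertical axis, for all probe sets tested that lie within the axes (grey) and the 9 connexin probe sets (coloured by gene). The upper right quadrant holds 4 of the 5 Gja1 probe sets, while Gjb1, Gjb2 and Gjc1 lie to the right of 0 in experiment 1, Gjc1 by only 0.0074 and not under other scalings, and below 0 in experiment 2.

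Gjc1 had 1 tested probe set, 1449094_at, and its signals were close on all 4 arrays. It gave 349 and 377 in the p57+/+ samples against 351 and 355 in the p57-/- samples, a log2 change of -0.04 (SE 0.19, limma adjusted p = 0.970). The second Gjc1 probe set, 1447787_x_at, was Absent on all 4 arrays, at 8.58 and 20.2 in the p57+/+ samples against 12.3 and 101 in the p57-/- samples.

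The endothelial connexins were not detected. Gja4 was Absent on all 4 arrays, at 125 and 109 in the p57+/+ samples against 159 and 137 in the p57-/- samples, with detection p-values from 0.0676 to 0.150. Its p57-/- signals both lay above its p57+/+ signals, as did 19.8% of tested probe sets, but with Absent calls no fold is given. Gja5, the connexin of larger arteries, gave 3.13 and 2.08 against 1.97 and 2.72, all Absent and below the lowest Present signal of any array. Endothelial transcripts were present in the samples, with 11 of 12 endothelial markers and 8 of 10 arterial markers tested. The tested arterial markers had a median log2 change of 0.20 and ran from -0.34 to 0.68. Of the 8, 4 were higher in p57-/- in both experiments and 1 was lower in both. Over all genes tested, these shares were 29.6% and 26.7%. The summed signal of all 10 arterial markers was 3150 and 3468 in the p57+/+ samples against 3272 and 2831 in the p57-/- samples. These sums overlapped between genotypes.

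**Figure D3:**
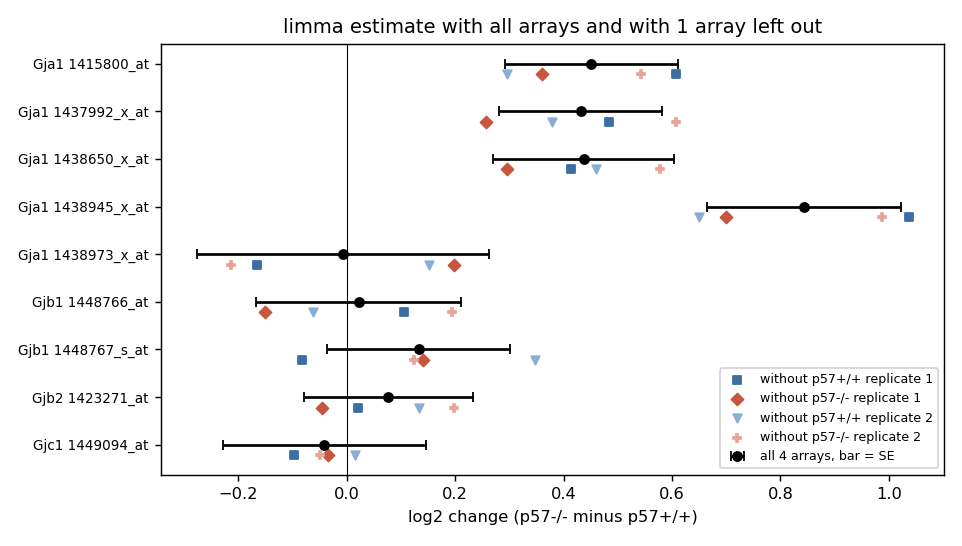
Log2 change (p57-/- minus p57+/+) of each tested connexin probe set from limma with all 4 arrays (black, bar = SE) and with each array left out in turn (coloured symbols). The 4 Gja1 probe sets other than 1438973_x_at stay above 0 in every fit, from 0.26 to 1.04, while the others fall on both sides of 0.

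The rest of the connexin family was at or near the detection limit. Of 14 further connexin genes listed, 8 were on the array under their own single symbol, with 11 probe sets, and 0 were tested. Gjb6, a partner of Gjb2 in skin and the inner ear, was Present on 1 array, p57+/+ replicate 1, at 25.3. The other 10 probe sets, for Gja3, Gja10, Gjb5, Gjc3, Gjd2, Gjd4 and Gje1, were Absent throughout. The pannexins, which form channels in the membrane of single cells, were Absent with all 5 probe sets of Panx1, Panx2 and Panx3. The highest of these signals, 248, was that of Panx1 in p57+/+ replicate 1.

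Genes of proteins that anchor, transport or phosphorylate connexins went both ways. Of 19 such genes listed, 15 were on the array and 14 were tested. Of the 14, 2 were higher in p57-/- in both experiments, 3 were lower in both and 9 went opposite ways, with 0 past the threshold and a median log2 change of -0.05. Over all genes tested, 29.6% were higher in both, 26.7% were lower in both, and the median was 0.02. Tjp1, the scaffold that binds the tail of the Gja1 protein, gave 2666 and 2551 in the p57+/+ samples against 3199 and 2679 in the p57-/- samples, a log2 change of 0.17 (SE 0.13).

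Dbn1, which encodes the actin-binding protein drebrin, gave 337 and 387 in the p57+/+ samples against 269 and 260 in the p57-/- samples, a log2 change of -0.45 (SE 0.20). Cnst, which encodes consortin, a receptor for connexin transport to the surface, gave 790 and 739 against 661 and 574, a log2 change of -0.31 (SE 0.16). For each of these genes both p57-/- signals lay below both p57+/+ signals, as did those of 18.8% of all probe sets tested. The kinase genes Src at -0.37 (SE 0.24) and Prkca at -0.26 (SE 0.21) overlapped between genotypes. The tubulin gene Tubb5 was at -0.13 (SE 0.11), and Ywhaq, of the family of phosphoserine-binding adaptors, at 0.02 (SE 0.12).

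Adherens junction genes encode the cadherin contacts that precede gap junction assembly. All 11 on the array were tested, 5 of them higher in p57-/- in both experiments and 0 lower in both, with 0 past the threshold and a median of 0.10. Of all genes tested, 29.6% were higher in both and 26.7% were lower in both. The list's medians were 0.16 in experiment 1 and 0.01 in experiment 2. These counts use 1 probe set per gene, and further probe sets did not all agree. Ctnnd1, among the 5, had 2 tested probe sets, 1 higher in both experiments and 1 lower in both. For Cdh2 and Ctnna1, 1 of 2 tested probe sets each was higher in both, and for Cdh11 1 of 2 was lower in both. Vcl, also among the 5, was higher in experiment 2 by a log2 difference of only 0.011. The neural cadherin gene Cdh2 gave 4095 and 3637 in the p57+/+ samples against 4339 and 4203 in the p57-/- samples, a log2 change of 0.15 (SE 0.12). The endothelial cadherin gene Cdh5 was at 0.44 (SE 0.21), 1.86-fold in experiment 1 and 0.995-fold in experiment 2. Jup, which encodes plakoglobin, was at -0.46 (SE 0.31), Ctnnd1 at 0.16 (SE 0.16), Ctnna1 at 0.13 (SE 0.11) and Ctnnb1, which encodes beta-catenin, at 0.10 (SE 0.12).

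Tight junctions seal the space between epithelial cells. Of 8 genes listed, 6 were tested, 3 of them higher in p57-/- in both experiments and 0 lower in both, with 0 past the threshold and a median of 0.03. Of all genes tested, 29.6% were higher in both and 26.7% were lower in both. Among the 3, Cgn overlapped between genotypes and was higher in experiment 2 by a log2 difference of only 0.00023. Marveld2, which encodes tricellulin, a protein of corners where several cells meet, gave 454 and 537 in the p57+/+ samples against 749 and 609 in the p57-/- samples, a log2 change of 0.45 (SE 0.18). The occludin gene Ocln was at 0.30 (SE 0.16), Cgn at 0.12 (SE 0.17), and Cldn5, a claudin of endothelium, at -0.08 (SE 0.20). The claudin gene Cldn1 was at -0.07 (SE 0.12) and F11r at -0.05 (SE 0.15).

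**Figure D4:**
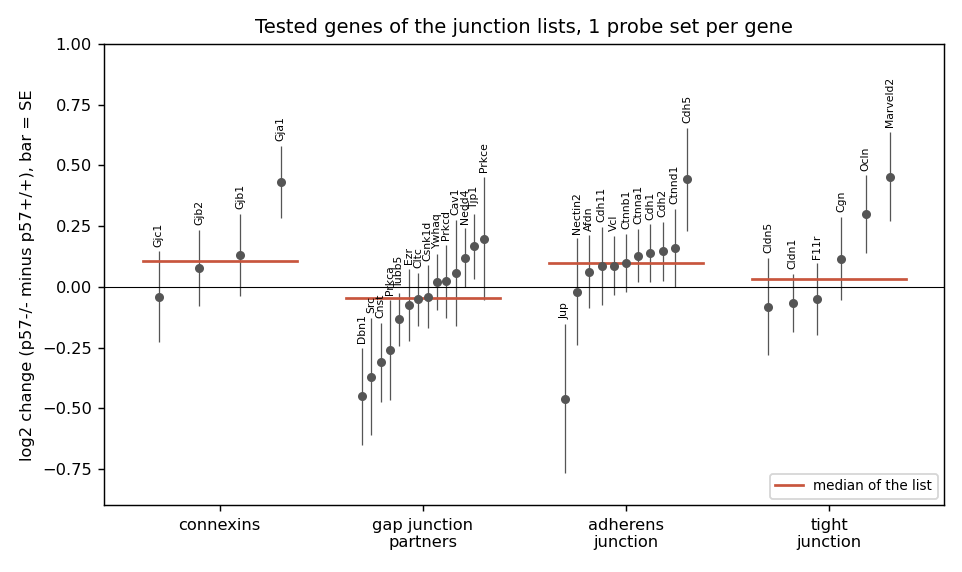
Log2 change (p57-/- minus p57+/+, bar = SE) of the tested genes of 4 lists, 1 probe set per gene, with the median of each list as a red line. The medians are 0.10 for the connexins, -0.05 for gap junction partners, 0.10 for adherens and 0.03 for tight junction genes, and Gja1 is the highest of the 4 connexins.

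Markers of other cells in the samples were read beside Gja1. The mesothelial list was tested in full, 15 of 15, and its median log2 change was -0.00413, with 5 genes higher in p57-/- in both experiments and 6 lower. Its summed signal was 21651 and 26788 in the p57+/+ samples against 22273 and 26581 in the p57-/- samples, so the sums overlapped between genotypes. Single genes of the list ran from a log2 change of -0.56 for Muc16 to 0.64 for Wt1. Of mesenchymal and stellate cell markers, 10 of 11 were tested, 7 of them higher in both experiments and 2 lower. Over all genes tested, these shares were 29.6% and 26.7%. Among the 7, Col1a2 was higher in experiment 2 by a log2 difference of only 0.00555, and Pdgfra overlapped between genotypes. Of the tested probe sets, 1 of 3 was higher in both for Col1a2 and 1 of 2 each for Reln and Lrat. For Hhip 3 of 4 were, and for Col3a1 2 of 2. The mesenchymal markers had a median of 0.23, with 0.42 in experiment 1 and 0.086 in experiment 2. The summed signal of all 11 was 76389 and 86531 in the p57+/+ samples against 98183 and 90542 in the p57-/- samples. It was higher in p57-/- on both arrays, as for 4 of the Gja1 probe sets. Smooth muscle and pericyte markers, 6 of 10 tested, summed over all 10 to 4746 and 4897 against 5411 and 4388. Among them Cnn1 and Des were Absent throughout. Endothelial markers, tested or not, summed to 8116 and 9164 against 11411 and 8330, so only p57-/- replicate 1 stood above the p57+/+ arrays. Among blood cell markers, all 8 erythroid genes were lower in p57-/- in both experiments (median -0.51, 0 past the threshold), with summed signals of 94929 and 100752 against 64943 and 85782. Of 7 granulocyte markers, 5 were higher in both (median 0.11). The part of these cells in the Gja1 difference was not tested.

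Heart muscle, where Gja1 is abundant, left 1 tested marker of 6. Myh7, Tnni3 and Nppa were Absent on all 4 arrays. Actc1, of striated muscle, was Present only in p57+/+ replicate 1, at 1410, and Absent on the other arrays at 41.6 to 88.0. Tnnt2, a troponin gene and the marker tested, had 3 probe sets, 2 of them tested. Of the 2, 1 was higher in p57-/- in both experiments and 0 were lower in both, so they did not agree. The brighter, 1418726_a_at, gave 352 and 534 in the p57+/+ samples against 720 and 743 in the p57-/- samples. Its log2 change was 0.75 (SE 0.21, limma adjusted p = 0.549). Both p57-/- signals lay above both p57+/+ signals, as for 4 of the Gja1 probe sets and 19.8% of all probe sets tested. The part of muscle transcripts in the Gja1 difference was not tested.

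Genes whose signals followed those of Gja1 over the 4 arrays were found by the root mean square difference of mean-centred log2 signals from 1437992_x_at, over 10418 other genes Present on all arrays. The 5 nearest were Slc30a1 at 0.0173, Gne at 0.0208, Tbc1d8 at 0.0220, Aqp11 at 0.0230 and Sirt3 at 0.0252. They encode a zinc exporter, an enzyme of sialic acid synthesis, a Rab GTPase-activating protein, an intracellular aquaporin and a mitochondrial deacetylase. Slc30a1 gave 796 and 741 in the p57+/+ samples against 1199 and 913 in the p57-/- samples. In all, 267 genes lay within 0.1 of 1437992_x_at, so over 4 samples the pattern of this probe set was shared by many genes. The other Gja1 probe sets were not compared in this way.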

How the data were processed

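Per the labels' protocols, RNA of 4 samples was labelled from 250 ng with a 3' kit and read on single-colour Affymetrix arrays, 1 per sample. The authors deposited, per the file headers, a MAS5 signal intensity per probe set on a linear scale and a detection p-value with its call; no MAS5 version is given in the sources used here. As deposited, the 2% trimmed mean was 500.0 on each array, so arrays had been scaled to a common target, which hides changes in total RNA. Signals were log2 transformed with no pseudocount or further normalization. Control probe sets and those Present on fewer than 2 arrays were left out, and limma 3.58.1 (R 4.3.3; lmFit, eBayes with a variance trend, no block, two-sided, Benjamini-Hochberg over 22800 probe sets) compared the genotypes. The script was tested on simulated data. The number of arrays limits the precision.

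Symbols came from the platform annotation. Of the probe sets, 34945 had 1 symbol, 932 several and 9160 none. For lists, the tested probe set of highest mean log2 signal stood for a gene. Summed signals took every gene of a list on the array, tested or not, so they can include Absent signals. The members and lists were chosen with earlier results of these data known. The rule for named genes took every member, other connexins and pannexins, the up to 4 largest changes and 2 brightest genes of each junction list, and the 5 genes nearest Gja1. Genes beyond it, such as Tjp1, Xist, Eif2s3y and markers, were named after their values were seen. Alternatives were the experiment number as a block, 2 other scalings, 2 other detection filters, a pseudocount of 16, no variance trend, each array left out, the deposited value table and the mean of a gene's probe sets.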

Additional observations from a re-analysis of the deposited data

How the results depend on the processing

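The count of connexin probe sets past the threshold, 0 with all 4 arrays, was 1 with the experiment number as a replicate block and lay between 0 and 1 with an array left out; the 1 was Gja1 probe set 1438945_x_at. The count over all probe sets, 1, was 30 with the replicate block and 0 among probe sets Present on all 4 arrays, where that of Cdkn1c is not tested, and lay between 5 and 221 with an array left out. The titles give the block, the experiment number, but not what an experiment shared. Deviations of same-numbered samples from their genotype means had r = 0.00460 across 22800 probe sets, which are not independent. The 4 connexin probe sets that went 1 way in both experiments became 7 without a detection filter, which adds Absent ones, and 5 after quantile normalization or centring of array medians, where Gjc1 1449094_at crossed 0 in experiment 1.

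With an array left out, small log2 changes crossed 0, from -0.21 to 0.20 for Gja1 1438973_x_at, -0.15 to 0.19 for Gjb1 1448766_at, -0.0815 to 0.35 for Gjb1 1448767_s_at, -0.0446 to 0.20 for Gjb2 and -0.10 to 0.0148 for Gjc1. The 4 other tested Gja1 probe sets kept their direction in all alternatives, 1437992_x_at between 0.26 and 0.61. In these fits the lone sample of a genotype is assumed to vary like the other genotype. Other scalings, the pseudocount, the value table and the mean over probe sets changed no limma call and no direction of a limma log2 change.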
